A study of Mus musculus with 2 samples.

Results

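The imprinted genes of the mouse were followed across the clusters in which they lie, for 40 listed genes. Imprinted genes are transcribed mainly from the copy inherited from the mother or mainly from the copy inherited from the father. A probe was taken as a member if the name in the scanner file, or the gene of its transcript accession, was 1 of the 40. By this rule 39 of the 40 genes were found on the array, out of 34786 genes or transcripts, and they were read by 79 of 55680 probes. Rian, a maternally expressed noncoding RNA of the Dlk1-Meg3 cluster, had no probe.

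Gene expression was measured on 1-colour oligonucleotide arrays in LSK cells, the lineage-negative, Sca-1-positive and c-Kit-positive fraction of bone marrow that holds stem and progenitor cells. Both groups consisted of C57BL/6 cells of genotype Tet2KD/KD Ezh2Δ/Δ, called MDS (myelodysplastic syndrome) by the labels, and both were sorted from secondary recipients 10 weeks after transplantation. The DAC group had been given decitabine (DAC), a cytidine analogue that depletes DNA methyltransferase, and the PBS group phosphate-buffered saline. The sample labels give 7 weeks for each treatment, without saying whether this is its length or the time since it. Each group was 1 array, so no difference has a replicate check, and how many mice stood behind it, and at what dose, is not given in the sources used here. Because both groups carry the Tet2 and Ezh2 alleles, these arrays hold no wild-type LSK cells.

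At an imprinted cluster, DNA methylation set in the egg or the sperm marks an imprinting control region on 1 parental copy. The mark is copied at each cell division by Dnmt1 with its partner Uhrf1, and it decides which copy makes a noncoding RNA or can use a shared enhancer. At several clusters the noncoding RNA silences protein-coding neighbours on its own copy, as Airn does to Igf2r and Kcnq1ot1 does to Phlda2 and Slc22a18. The arrays did not measure DNA methylation and cannot tell the parental copies apart, so each value below is the sum over both.

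Processed intensities were put on the log2 scale and each array was set to 0 at its 75th percentile, and differences are DAC minus PBS. A probe is termed detected on an array where the scanner software called its signal well above background. A gene was measured if the brightest of its probes, over both arrays, was detected on each. A gene or probe detected on a single array is termed DAC-only or PBS-only, and a lower bound takes the place of its difference. Dim intensities include surrogate values that the software writes for spots not above background. The bound sets the bright signal against either the dim signal or the faintest detected probe of that array, whichever is higher.

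The probes and promoters on which the results turn are printed first. The probe of Igf2r and the probe of Inpp5f gave the largest bounds in either direction, and their first 30 bases follow.
Igf2r: agagttgtatataggtggcatttacatacc
Inpp5f: ggaaacggttgactgtttctgtgcccattt

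Airn probes that lie 165 bases apart (chr17:13008078-13008137 and chr17:13008303-13008362 in mm9, plus strand) gave different calls. The first was detected on both arrays and the second was DAC-only.
Airn, both arrays: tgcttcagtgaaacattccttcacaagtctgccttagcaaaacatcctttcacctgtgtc
Airn, DAC-only: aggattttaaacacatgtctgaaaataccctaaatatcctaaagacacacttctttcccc

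A like pair abuts in H19 (chr7:149762113-149762172 and chr7:149762173-149762232 in mm9, minus strand).
H19, both arrays: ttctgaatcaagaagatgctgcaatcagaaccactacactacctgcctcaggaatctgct
H19, DAC-only: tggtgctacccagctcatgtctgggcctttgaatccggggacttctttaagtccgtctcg

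The pair of DAC-only Plagl1 probes shared a run of 26 bases, so they are not independent reads of that gene. A stretch of 30 bases around the run is printed for each, with the run in capitals.
Plagl1, first: ATCTCCTAACCTTTGATGACTCTGTActtt
Plagl1, second: atATCTCCTAACCTTTGATGACTCTGTAtt

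The 250 bases upstream of the Igf2r and Airn starts are given with every CG dinucleotide, the site of DNA methylation, in capitals. They come from RefSeq on GRCm38.p6, another build than that of the probe positions, and lie at chr17:12769707-12769956 on the minus strand and chr17:12741061-12741310 on the plus strand.
Igf2r promoter: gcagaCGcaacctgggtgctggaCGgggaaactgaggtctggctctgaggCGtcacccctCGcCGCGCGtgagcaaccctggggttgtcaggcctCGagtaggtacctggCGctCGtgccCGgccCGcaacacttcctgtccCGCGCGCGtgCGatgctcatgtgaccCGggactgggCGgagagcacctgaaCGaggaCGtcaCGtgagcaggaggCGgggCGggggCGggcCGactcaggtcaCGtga
Airn promoter: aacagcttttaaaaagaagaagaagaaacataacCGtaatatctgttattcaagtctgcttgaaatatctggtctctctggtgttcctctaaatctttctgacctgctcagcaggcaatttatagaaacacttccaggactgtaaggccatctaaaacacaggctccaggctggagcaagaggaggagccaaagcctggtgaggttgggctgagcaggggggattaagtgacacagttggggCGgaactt

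In the 300 bases from 250 before to 50 after a start, the Igf2r promoter held 34 CG dinucleotides and the Airn promoter 3. Bases outside this window were not counted, and where the imprinting control regions lie was not looked up. At least 34 were found in 7.73% of all 32851 promoters in the table, and at least 3 in 76.7%. Of the members, 34 genes were matched to 49 promoters, with a median of 16 CG dinucleotides against 7 over all promoters. At least 10 were held by 34 of these 49 promoters (69.4%), against 43.5% of all. The median was 17 for the 11 promoters of DAC-only genes, 17.5 for the 20 of measured genes and 13 for the 15 of genes found on neither array. The promoters of DAC-only genes were thus close in CG content to those of genes read on both arrays.

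The sorted label was checked against marker genes. Of 17 LSK and progenitor genes, 16 were measured on both arrays, and their summed level was 54.3 with DAC and 49.7 with PBS, in units of the 75th percentile. The exception was Slamf1, on neither array. Among genes that mark other cells, stromal genes numbered 3 of 12 detected with DAC and 5 with PBS, at sums of 1.53 and 1.41. These sums cover measured genes only, and Pdgfrb (difference 0.26) was by far the brightest of them. The other measured ones, Cxcl12 (−1.42) and Col1a2 (−0.90), were lower with DAC. Fabp4 and Col3a1 were PBS-only, lower by at least 5.70-fold and 2.46-fold. Col1a1, Lepr and Pdgfra were among those on neither array. Endothelial genes detected with DAC and with PBS were 6 and 4 of 7, with sums of 1.87 and 1.15. For monocyte and macrophage genes these were 7 and 5 of 8, with sums of 6.19 and 6.25. The sums of mast cell, basophil and eosinophil genes were 1.55 and 4.65 (5 and 6 of 7 genes), and those of mature neutrophil genes 6.44 and 8.40 (7 and 6 of 8). B cell genes had the largest sums outside the LSK list, 16.5 and 14.0 (7 and 7 of 8 genes). Erythroid genes had sums of 3.09 and 3.57 (7 and 7 of 9), megakaryocyte genes 2.72 and 1.85 (5 and 5 of 6, with 2 at least 2-fold higher) and T and NK cell genes 1.40 and 1.04 (4 and 5 of 8). Markers of other cells were thus detected on both arrays beside those of LSK cells. The part of these cells in any value below was not tested. In a bulk sample, fewer cells of a type and less RNA per cell cannot be told apart. The arrays also differed as a whole: 31601 probes (56.8%) were detected with DAC and 27007 (48.5%) with PBS. The 75th percentile of the unscaled intensity over all non-control spots was 217 and 143. The percentile used for scaling, over probes detected on both arrays, was 813 and 618.

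Most imprinted genes that could be measured differed by less than 2-fold, and the largest values were those of genes found on 1 array only. Of the 39 genes, 20 were measured on both arrays (51.3%, against 52.4% of all genes), 8 were DAC-only, 2 PBS-only and 9 on neither. Among the 20 measured genes, 2 were at least 2-fold higher on the DAC array, Nap1l4 and Copg2, and 0 were at least 2-fold lower. Over all 18211 measured genes 10.0% rose past 2-fold with DAC and 6.84% fell past it, so 2 of 20 (10%) lay at the background. The median difference of the measured members was 0.11, beside 0.02 over all genes, with 12 genes above 0 and 8 below, and both medians turned negative under other scalings.

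Scaled to the 75th percentile over all probes, the members' median was −0.09 and that of all genes −0.18, a shift of all genes by −0.20, with 9 members above 0 and 11 below. Median centring (−0.05), quantile normalization (−0.08) and cyclic loess (−0.02) also put the members' median below 0 and above that of all genes (−0.14, −0.09 and −0.05). Of all measured genes past 2-fold, 59.4% were higher on the DAC array, and under the alternatives of scaling and background that share was 41.8% to 49.6%. Small differences below are therefore to be read against the median of all genes.

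The share of DAC-only members was above that of the whole array, a difference that 1 array per group does not allow to be tested. It rests on the call well above background: under the software's weaker call, positive and significant, the 8 DAC-only members became 0. The 8 DAC-only genes made up 20.5% of the members, against 9.43% of all genes and 8.94% of those named by a RefSeq accession or a current symbol. The 2 PBS-only genes made up 5.13%, against 2.81% and 2.38%. A bound of at least 2-fold was reached on the DAC side by 4 of the 39 members (10.3%, against 3.61% of all genes) and on the PBS side by 1 (2.56%, against 1.52%). The 9 genes on neither array were 23.1% of the members, beside 35.0% of all genes.

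Counted by probe, 27 of the 79 were detected on both arrays (34.2%, against 45.6% of all probes). A further 24 were DAC-only (30.4%, against 11.1%), 2 PBS-only (2.53%, against 2.88%) and 26 on neither (32.9%, against 40.4%). These 24 probes belonged to 15 genes, and 8 of them to Airn and H19, each read several times. Without those genes 16 of 67 probes (23.9%) were DAC-only. A bound of at least 2-fold was reached by 11 of the 79 probes (13.9%, against 4.42% of all probes), from 10 genes.

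**Figure D1:**
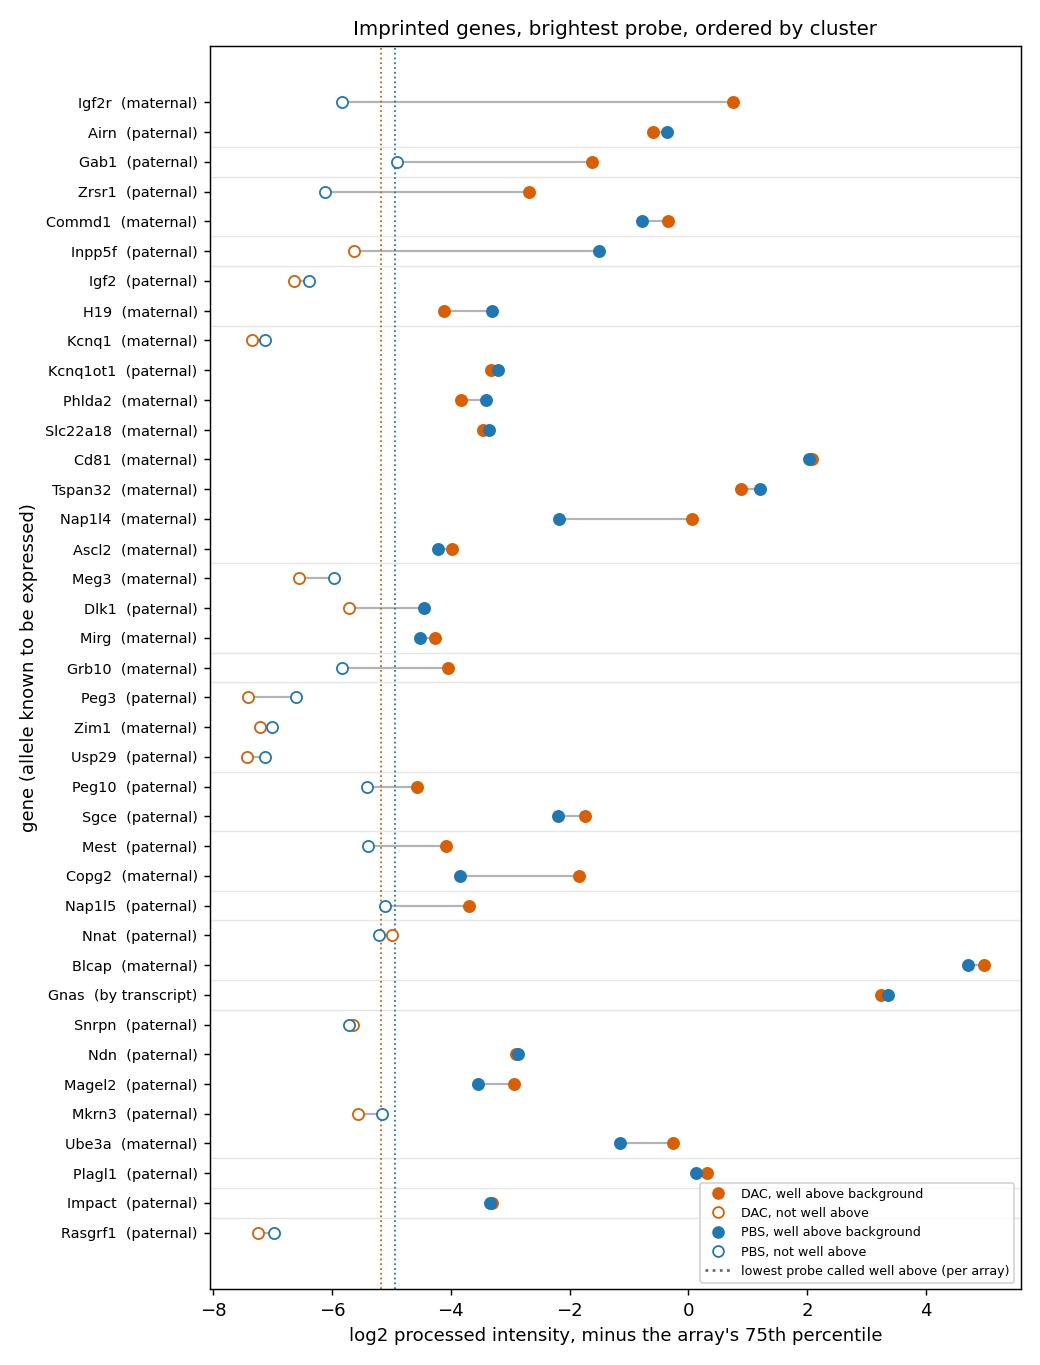
Scaled log2 signal of the brightest probe of each of the 39 imprinted genes on the DAC array (orange) and the PBS array (blue), with 0 at the array's 75th percentile, rows ordered by cluster and the known expressed allele in brackets. Filled points are detected and open ones are not, and the long grey lines are those of Igf2r, Gab1, Zrsr1 and Inpp5f. Nnat is drawn open on both arrays because its other, dimmer probe was the one called on the DAC array.

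**Figure D2:**
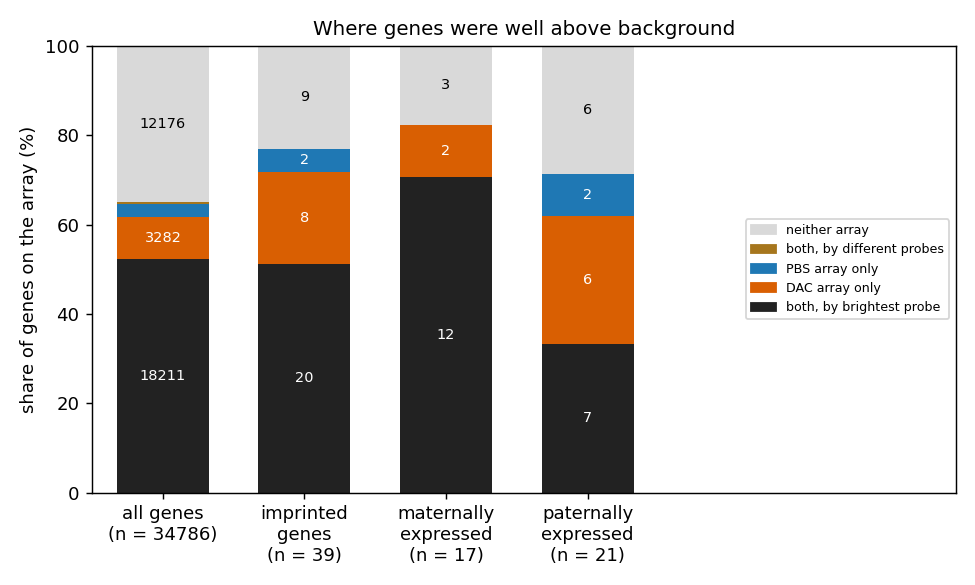
Share of genes on the array that were detected on both arrays by their brightest probe, on both by different probes, on 1 array or on neither, for all 34786 genes and for the 39 imprinted genes, 17 of them maternally and 21 paternally expressed (numbers in the bars are genes). The orange part, DAC-only, holds 8 of the 39 imprinted genes, 2 of them maternally and 6 paternally expressed.

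At the Igf2r-Airn cluster on chromosome 17, Igf2r was the imprinted gene with the largest bound. Igf2r encodes the receptor that takes insulin-like growth factor 2 and mannose-6-phosphate enzymes to the lysosome, and is expressed from the maternal copy. Its probe was printed 10 times per array, and on the DAC array the processed intensity of the 10 spots ran from 1285 through a median of 1369 to 1448. On the PBS array the same probe ran from 4.38 through 11.8 to 18.3. The spots of the arrays did not overlap. All 10 spots were detected with DAC and 0 of 10 with PBS, where 9 were positive and significant, a weaker call of the scanner software. Before any background was subtracted, the median spot signal was 1495 with DAC and 80.9 with PBS, over local backgrounds of 36 to 43. The bound was at least 51.4-fold, and the log2 SD over the 10 DAC spots was 0.06.

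The file places this 60-base probe at chr17:12875253-12875263 in mm9 on the minus strand, a stretch of 11 bases, so its full position is not known here. It shared no run of 25 bases with a probe of any other gene. Igf2r was read by this probe alone, so no other probe of the gene can be set beside it.

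**Figure D3:**
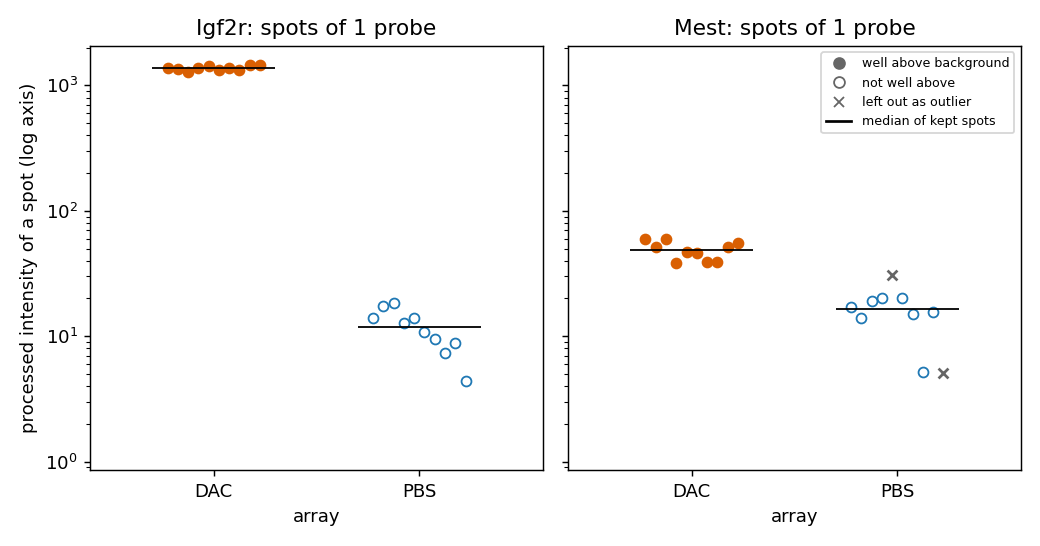
Processed intensity (log axis) of every spot of the Igf2r probe and of the Mest probe, each printed 10 times on the DAC array (orange) and the PBS array (blue), in the order of the array's rows, with the median as a line. The Igf2r spots lie at 1285 to 1448 with DAC and at 4.38 to 18.3 with PBS, and the Mest spots at 38.4 to 60.0 and 5.22 to 20.2, filled points being detected and crosses outlier spots that were left out.

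Airn, the paternally expressed antisense RNA that silences Igf2r, was read by 5 probes on the opposite strand, and they did not move together. The brightest, at chr17:13008078-13008137, gave 538 with DAC and 481 with PBS, a scaled difference of −0.23. The probe that lies 165 bases downstream gave 184 and 4.38 and was DAC-only, at least 6.89-fold higher. The probes at chr17:12944784-12944843 (110 and 13.2, at least 4.13-fold) and chr17:13007006-13007065 (47.8 and 14.97, at least 1.79-fold) were also DAC-only. The fifth, at chr17:13011269-13011328, was on neither array. Thus 3 of the 5 Airn probes were DAC-only, while the brightest differed by less than 2-fold in the other direction. Igf2r and 3 probes of its antisense RNA were therefore higher on the same array.

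Between the outermost probes of this cluster lay 8 others, of which 2 were detected on both arrays, 1 DAC-only and 5 on neither. They read unnamed transcripts on the strand of Airn. Of 5 probes to 1 such transcript between 12944295 and 12944639, 1 was measured with a difference of 0.74 and 1 was DAC-only.

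Zrsr1 and Commd1 share a locus on chromosome 11, where Zrsr1, a paternally expressed splicing factor gene without introns, lies inside Commd1. The Zrsr1 probe gave 126 with DAC and 8.89 with PBS, which makes it at least 4.73-fold higher. Commd1, a regulator of copper transport and NF-kappaB that is biased to the maternal copy in brain, gave 641 and 360, a difference of 0.44. The nested gene and its host were thus both higher on the DAC array, the host by less than 2-fold.

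Gab1, a docking protein that carries growth factor and cytokine signals, is imprinted in placenta, where the paternal copy is expressed. Its single probe (chr8:83289342-83289401 in mm9) gave 264 with DAC and 20.7 with PBS. It was at least 9.73-fold higher on the DAC array.

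Inpp5f, a phosphoinositide phosphatase whose brain isoforms are paternally expressed, went the other way. The probe at chr7:135813452-135813511 gave 16.4 with DAC and 217 with PBS, a fall of at least 12.7-fold. The second probe, at chr7:135832281-135832340, was designed on another transcript record and was on neither array, at 5.16 and 4.59. The fall therefore rests on 1 spot per array and covers 1 of the transcripts.

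At the H19-Igf2 cluster on chromosome 7, the growth factor gene Igf2, expressed from the paternal copy, was on neither array, at 8.21 and 7.43. H19, the maternally expressed noncoding RNA that uses the same enhancers, was read by 7 probes within 985 bases. All 7 were detected with DAC and 2 with PBS. The brightest gave 46.9 and 62.5, a difference of −0.81, and the other measured probe 56.7 and 34.9, a difference of 0.30. Of the 5 DAC-only probes, the one that abuts the second measured probe gave 93.5 and 7.56, at least 3.50-fold higher. The other 4 had bounds of 1.15-fold to 1.46-fold, at 33.8 to 38.9 on the DAC array. H19 was thus near background, and its measured probes differed in direction.

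The Kcnq1ot1 domain on chromosome 7 was the cluster with the most measured genes, 7 of 8, and a median difference of −0.10. Kcnq1ot1, the paternally expressed RNA that silences the domain, gave 81.2 and 66.9 at its brightest probe, a difference of −0.12. Its other probe gave 97.7 and 23.0 and was DAC-only, at least 3.23-fold higher. The genes it silences in most tissues showed small differences. Phlda2, a brake on placental growth, gave 57.5 and 58.4 (−0.42), and Slc22a18, a transporter gene, 74.3 and 60.6 (−0.10). Kcnq1, a potassium channel gene, was on neither array by either of its probes, which overlap by 51 bases.

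The members known to be imprinted mainly in placenta made up the rest of that domain. The tetraspanin genes Cd81 (3437 and 2518, difference 0.05) and Tspan32 (1506 and 1421 at the brightest probe, −0.31) differed little at their brightest probes. The other Tspan32 probes gave −1.54 and 0.61, so its 3 probes had no common direction. Ascl2, a transcription factor of trophoblast, gave 51.7 and 33.4, a difference of 0.23.

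Nap1l4, which encodes a histone chaperone, had the largest difference of any measured member. Its brightest probe, at chr7:150700216-150700275, gave 846 with DAC and 136 with PBS, a difference of 2.24 or 4.73-fold. Its second probe gave 255 and 181, a difference of 0.10. The 4.73-fold rise was therefore read by 1 of 2 probes, both detected on both arrays.

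Within the domain lay 13 probes of other transcripts, 8 of them on both arrays, with 1 past 2-fold in each direction. Of these, 5 carried the name KCNQ1ot1 but were placed on the plus strand, opposite to the member probes, between 150481806 and 150482398. All 5 were measured, 4 of them lower on the DAC array and 1 at least 2-fold so, with differences from −2.47 to 0.43. They were not counted as members because the rule takes names as spelled, and theirs differs from Kcnq1ot1 in its capitals.

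At the Mest-Copg2 cluster on chromosome 6, both genes were higher on the DAC array. Copg2, a subunit of the coatomer that coats transport vesicles, is biased to the maternal copy in embryo and brain. Its brightest probe gave 226 with DAC and 43.0 with PBS, a difference of 1.998 or 3.99-fold. Its second probe gave 81.9 and 20.4 and was DAC-only, at least 3.05-fold higher. Both Copg2 probes were at least 2-fold higher.

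Mest, a paternally expressed member of the hydrolase fold family that runs toward Copg2 from the other strand, was DAC-only. The probe printed 10 times per array ran from 38.4 through a median of 48.9 to 60.0 on the DAC array and from 5.22 through 16.5 to 20.2 on the PBS array, over the 8 spots that were kept there. The kept spots did not overlap, and all 10 were detected with DAC and 0 of 8 with PBS. Of the 2 PBS spots left out as outliers, 1, at 30.98, was detected. The bound was at least 1.80-fold. A second Mest probe (36.3 and 14.0, at least 1.36-fold) was also DAC-only and the other on neither. The Mest and Copg2 probes nearest to each other lie on opposite strands, 152 bases apart.

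The other genes found on 1 array were dim, and their bounds were small. Nap1l5, a paternally expressed relative of Nap1l4 in an intron of Herc3, gave 62.9 and 18.0 and was at least 2.36-fold higher, while its other probe was on neither array. Grb10, an adaptor that restrains insulin receptor signalling and is maternally expressed outside neurons, gave 49.4 and 10.9, at least 1.85-fold higher. Peg10, a retrotransposon-derived gene, gave 34.3 and 14.6, at least 1.28-fold, and its second probe, at 9.89 and 4.57, was on neither array. Nnat, a proteolipid of the endoplasmic reticulum, gave 33.4 and 12.6, at least 1.25-fold, and its other probe, at 25.5 and 16.8, was on neither array. Dlk1, a Notch ligand homologue, gave 15.5 and 28.2 and was PBS-only, lower with DAC by at least 1.65-fold, while its second probe, at 5.53 and 4.87, was on neither array. Under the main processing, the bounds of these genes other than Nap1l5 were under 2-fold.

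At the Dlk1-Meg3 cluster on chromosome 12, the maternally expressed noncoding RNA Meg3 was on neither array by any of its 3 probes, at 4.75 to 8.70 with DAC and 4.62 to 9.87 with PBS. Mirg, the noncoding RNA that hosts microRNAs of the cluster, was measured at 42.3 and 26.9, a difference of 0.26, and its second probe was on neither array. Of 83 other probes between the outermost member probes, 28 were detected on both arrays, 7 DAC-only, 3 PBS-only and 45 on neither. Over all probes of the array these shares were 45.6%, 11.1%, 2.88% and 40.4%. Among those 28, 2 were at least 2-fold higher and 0 lower. The cluster was thus little read in these cells by its named members.

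The 3 listed genes of the Peg3 domain on chromosome 7 were on neither array. Of 2 other probes between the outermost member probes, 1, that of Zim3, was detected on both arrays (0.12) and 1 on neither. Peg3 and Zim1, zinc finger genes expressed from the paternal and the maternal copy, and Usp29, a paternally expressed protease gene, had 5 probes at 4.73 to 5.48 on the DAC array and 4.40 to 6.33 on the PBS array. Rasgrf1, a guanine nucleotide exchange factor imprinted in brain, was on neither array by its 2 probes, which lay at 4.51 to 5.39 over both arrays.

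The Snrpn domain on chromosome 7 was mixed, with 3 of 5 genes measured and none past 2-fold. Snrpn, a splicing protein gene, and Mkrn3, a ubiquitin ligase gene, both paternally expressed, were on neither array. Ndn, a growth suppressor, gave 109 and 84.5 (−0.02), and Magel2, a regulator of protein sorting, 106 and 52.9 (0.60), both from the paternal copy. Ube3a, a ubiquitin ligase whose paternal copy is silent in neurons, gave 682 and 277 at its brightest probe, a difference of 0.90, and 35.2 and 43.0 at its second, a difference of −0.68. Its probes differed in direction. Of 102 other probes between the outermost member probes, 30 were detected on both arrays, 9 were DAC-only, 2 PBS-only and 61 on neither. Over all probes of the array these shares were 45.6%, 11.1%, 2.88% and 40.4%. Among those 30, 4 were at least 2-fold higher and 1 lower.

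The remaining clusters held genes read on both arrays with small differences at the brightest probe. Sgce, a sarcoglycan gene beside Peg10, gave 244 and 135 (0.46). Blcap, a small membrane protein gene around Nnat, gave 25510 and 16199 (0.26). Impact, a translation regulator, gave 82.6 and 60.8 (0.04), and its other probe was DAC-only with no bound above 1.

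Gnas encodes the stimulatory G protein subunit and, from other promoters, transcripts of either parental copy. Its probe farthest downstream gave 7695 and 6314 (−0.11), and a second probe 82.1 and 60.7 (0.04). Another, at chr2:174163501-174163560, gave 84.4 and 7.15, at least 3.16-fold higher on the DAC array, and the last, at 28.8 and 25.3, was found there with no bound above 1. Probes along the locus thus gave different values, and those read on both arrays differed by less than 2-fold.

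Plagl1, a paternally expressed zinc finger gene that regulates other imprinted genes, gave 1006 and 677 at its brightest probe (0.17) and 168 and 102 at the next (0.32). The pair with the shared 26 bases gave 83.9 and 8.28 (at least 3.14-fold) and 53.3 and 4.18 (at least 1.998-fold). All 4 probes were higher on the DAC array, the measured pair by less than 2-fold.

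**Figure D4:**
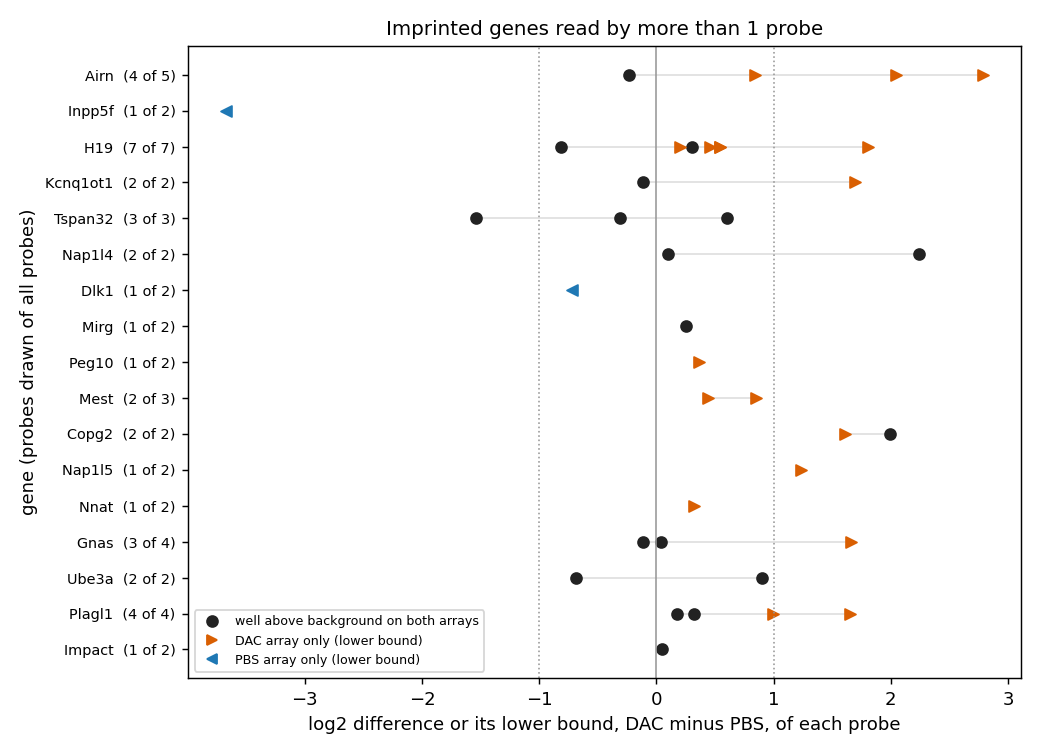
Log2 difference DAC minus PBS of each probe of the imprinted genes with more than 1 probe, as circles where the probe was detected on both arrays and as triangles at the lower bound where it was so on 1 array (dotted lines mark 2-fold). Probes on neither array, or with no bound above 1, are not drawn, and Airn, H19, Gnas, Plagl1 and Kcnq1ot1 each combine a circle near 0 with triangles to the right.

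Disagreement between probes of a gene was not rare on these arrays. Of 4655 genes with more than 1 measured probe, 47.3% had probes of opposite sign and 36.05% a range of at least 2-fold. Among the members 6 genes had more than 1 measured probe, and 4 had opposite signs and 4 a range of at least 2-fold.

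By parental allele, maternally expressed genes were more often measured and paternally expressed ones more often found on 1 array, with no test of the difference. Of 17 maternally expressed genes, 12 were measured (70.6%), 2 were DAC-only (11.8%, Igf2r and Grb10), 0 PBS-only and 3 on neither (17.6%). Of 21 paternally expressed genes, 7 were measured (33.3%), 6 were DAC-only (28.6%, Gab1, Zrsr1, Peg10, Mest, Nap1l5 and Nnat), 2 PBS-only (9.52%, Inpp5f and Dlk1) and 6 on neither (28.6%). Over all genes 52.4% were measured, 9.43% DAC-only, 2.81% PBS-only and 35.0% on neither, so the maternal DAC-only share lay near the background and the paternal one above it. Gnas, expressed by transcript, was measured. The median difference was 0.24 over the 12 maternally and 0.04 over the 7 paternally expressed genes. Both genes past 2-fold among the measured, Nap1l4 and Copg2, were maternal and imprinted in placenta or in embryo and brain.

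Restricted to genes imprinted in most tissues, the medians were −0.26 for 4 measured of 6 maternally and 0.04 for 7 measured of 18 paternally expressed genes. Within this class, 1 of 6 maternal (16.7%) and 5 of 18 paternal genes (27.8%) were DAC-only, against 9.43% of all genes. Grb10, maternal and DAC-only, was not counted in this class because it is imprinted outside neurons. The order of the medians of the alleles thus turned with the choice of genes.

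Imprinted genes outside the 40 were counted for comparison from a list of 55, of which 53 were on the array. Of 29 measured, 6 rose past 2-fold with DAC and 1 fell past it, with a median of 0.14, while 5 were DAC-only, 0 PBS-only and 19 on neither. The 5 DAC-only genes were 9.43% of the list, the same as over all genes, so the larger share seen among the 40 was not found here, while 20.7% of those measured rose past 2-fold, against 10.0% of all genes, and 3.45% fell past it, against 6.84%. The 6 were Ppp1r9a (2.46), a neuronal scaffold gene near Peg10, Dhcr7 (1.73), the last enzyme of cholesterol synthesis, Tnfrsf22 (1.43), a decoy receptor, Osbpl5 (1.09), a sterol carrier gene, Atp10a (1.05), a lipid flippase gene, and the noncoding RNA Peg13 (1.01). Pon3, a lactonase gene, was lower (−2.09), and the receptor kinase gene Axl was at least 2.68-fold higher.

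Genes that set, keep or remove imprints were mostly read on both arrays. Of 26, 22 were measured with a median of 0.10, and 2 were at least 2-fold higher: the methyltransferase gene Dnmt3a (1.68) and Tet2 (1.66), which encodes a dioxygenase that oxidises 5-methylcytosine and is altered in both groups. Tet3, a relative of Tet2, was at least 2-fold lower at its brightest probe (−1.55) and higher at its other measured probe. Of 2 DAC-only genes, Hells, a chromatin remodeller needed for methylation, was at least 5.10-fold higher. These shares were near those of all genes, with 9.09% of the measured higher past 2-fold against 10.0%, 4.55% lower against 6.84% and 7.69% DAC-only against 9.43%. Dnmt1 (0.33), Uhrf1 (0.03), the imprint reader Zfp57 (−0.10), its partner Trim28 (0.27) and the insulator protein gene Ctcf (0.44) all differed by less than 2-fold.

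The bounds and differences past 2-fold were recomputed under every alternative processing that could give them. Under the positive and significant call, genes with a bound were called on both arrays, so their value there was a plain difference. The upper ends given for Igf2r, Inpp5f, Zrsr1, Nap1l5, Dlk1, Grb10 and Mest are such differences, not bounds. Igf2r stayed past 2-fold in all 9, at 13.3-fold to 95.8-fold, as did Gab1 (2.73-fold to 9.73-fold) and Inpp5f (4.11-fold to 17.5-fold lower). Nap1l4 stayed past 2-fold in all 12 (1.17 to 2.24) and Copg2 in all 11 (1.01 to 1.998). Zrsr1 was past 2-fold in 7 of 9 (1.80-fold to 10.8-fold) and Nap1l5 in 5 of 9 (1.13-fold to 2.66-fold). H19 passed 2-fold, on the lower side, in 4 of 11 (−1.22 to −0.26). Of members under 2-fold in the main processing, Dlk1 also passed it in 3 of 9, up to 2.40-fold lower, and Grb10 (3.44-fold) and Mest (2.47-fold) in 1 of 9 each, under the positive and significant call. The signs of Cd81, Ascl2, Mirg, Gnas, Plagl1 and Impact turned under some of them. Peg10 and Nnat had no bound above 1 under some of them, while still DAC-only.

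**Figure D5:**
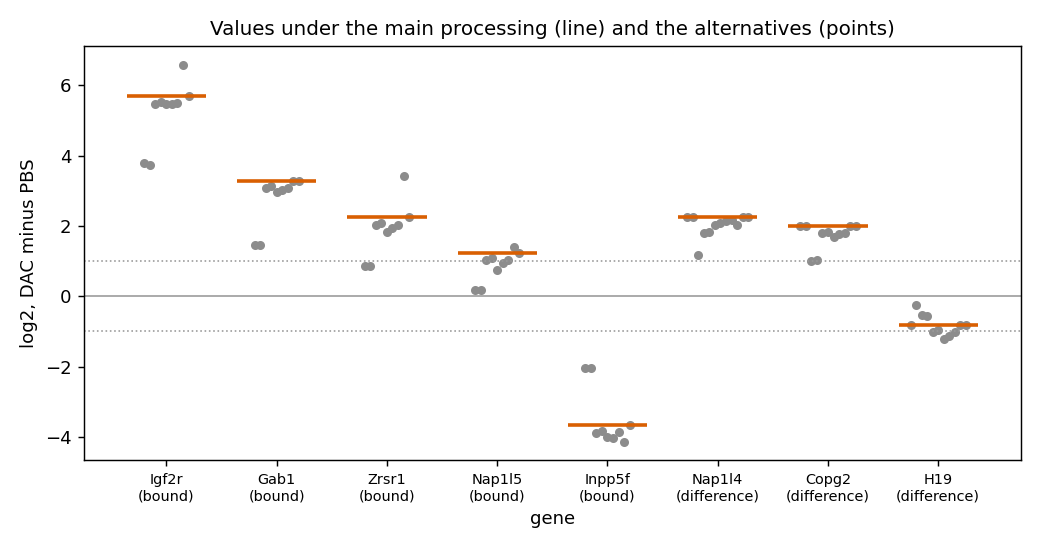
Log2 difference (Nap1l4, Copg2, H19) or lower bound (the other genes), DAC minus PBS, under the main processing (orange line) and each alternative (grey point), with dotted lines at 2-fold. The points of Igf2r, Gab1, Inpp5f, Nap1l4 and Copg2 all lie outside the dotted lines, and those of Zrsr1, Nap1l5 and H19 cross them.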

How the data were processed

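Total RNA of sorted LSK cells was labelled with Cy3 and hybridised to 1 array per group, per the labels' protocols. Per the file headers, spots were read with Agilent Feature Extraction 10.7.3.1 and probe positions are on mm9. The deposited processed intensity was background-subtracted and detrended by that software, with no step that sets the arrays against each other. The deposited files also give mean and local background intensity, calls and a p-value per spot, the last of which was not used further. The deposited series matrix holds log2 values centred on 0, whose difference between columns followed that of the log2 processed intensity with slope 1 and a constant offset of −0.60. The baseline taken from each of its probes is unknown.

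Of 55681 probes 55680 were kept. Spots of a probe were averaged as log2 without outlier spots, and a probe was detected where at least 50% of its spots had the software's call well above background. For scaling, the 75th percentile over the 25404 probes detected on both arrays was subtracted, and the brightest probe stood for a gene. Member probes were found by transcript accession (64) or symbol (15) through RefSeq's GRCm38.p6 gene table, used for names only. Exon and UTR positions are not analysed here.

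There was no test, since each group has 1 array, and the number of arrays limits the precision. The SD of a difference over spots of probes printed 10 times was 0.24, 0.14 and 0.09 for low, middle and high signal. It combines the spread between spots within each array. Labelling, hybridisation and scanning of an array as a whole are not covered, nor are animals, sorting or amplification. The members and all lists were chosen with earlier results of these data known. All 40 members were to be named, with every probe described for members past 2-fold, with a bound of at least 2-fold or with probes that differ in direction or call. Other imprinted genes and imprint maintenance genes were to be named if past 2-fold. Neighbouring probes, the KCNQ1ot1 probes and Dnmt1, Uhrf1, Zfp57, Trim28 and Ctcf were added after their values were seen. Alternatives covered background correction (limma 3.58.1, normexp with offset 50), scaling, calls, filters and the choice of probe. Calculations used Python 3.11.15, pandas 2.3.3 and R 4.3.3, and were tested on simulated data.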

Additional observations from a re-analysis of the deposited data

How the results depend on the processing

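With 1 array per group, processing was the part of the error that could be varied. No paired analysis was possible because each group has a single array. The 20 measured members became 34 under the positive and significant call, 39 with no filter on dim genes and 9 when the dimmer genes were dropped at the median signal. The 2 members at least 2-fold higher became 8 under that call and with no filter, and 1 in those brighter genes. The 0 members at least 2-fold lower became 2 under that call and with no filter, and 1 (H19) with the 75th percentile over all probes, quantile normalization, cyclic loess and the series matrix. Under that call 0 members were found on the DAC array only, since each was then called on both. The median of the measured members moved from 0.11 to −0.067 with normexp, −0.098 with no background subtraction, −0.089 with the 75th percentile over all probes, −0.046 with median centring, −0.081 under quantile normalization and −0.088 by the series matrix. These scalings moved the median of all genes by −0.20 (all probes, series matrix), −0.16 (median centring) and −0.11 (quantile). No result changed its direction past 2-fold. Signal over background limits the others: the dim side of the DAC-only and PBS-only genes has no level of its own, and the 9 on neither array could not be compared. The Igf2r, Gab1, Zrsr1 and Inpp5f values each rest on 1 probe.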
